A study of Rattus norvegicus with 58 samples.

Results

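The 8 genes described here belong to the breakdown of the branched-chain amino acids leucine, isoleucine and valine. They are Bckdha, Bckdhb, Dbt, Bckdk, Bcat2, Hibadh, Ivd and Mccc1, chosen by name as enzymes of this pathway, with earlier results of these data known. All 8 were found among the 14217 genes with a single symbol in the platform annotation. Each gene was read from its probe set of highest mean over all arrays. Bckdha and Dbt each had a second probe set, used as a check, and the other 6 genes had 1. The probe sets were 1370897_at for Bckdha (second 1380557_at), 1370906_at for Bckdhb, 1373201_at for Dbt (second 1392740_at), 1370842_at for Bckdk, 1386928_at for Bcat2, 1388118_at for Hibadh, 1370232_at for Ivd and 1376852_at for Mccc1. Their levels were measured in liver of 58 male rats of 17 weeks, killed after an overnight fast, with 1 array per rat. Of these, 23 were heterogeneous stock (HS) rats with normal glucose tolerance, 23 were HS rats with glucose intolerance, and the other 12 were inbred rats, 2 each of ACI, BN, BUF, F344, M520 and WKY. The HS is an outbred stock descended from inbred founder strains, so each animal carries its own mosaic of founder genomes. The labels name no drug, diet or transgene for any group, and the HS groups follow the sample titles, which speak of high and low glucose. The descriptions of the high-glucose rats are contradictory, joining the words normal and intolerance, and were read here as intolerant.

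Breakdown of these amino acids starts with a transamination by Bcat1 or the mitochondrial Bcat2, a step for which hepatocytes are known to have little enzyme, so that liver largely receives the keto acids made in muscle. The mitochondrial branched-chain keto acid dehydrogenase then commits the carbon skeleton to oxidation. Its E1 component is built from an alpha subunit (Bckdha) and a beta subunit (Bckdhb), and its E2 core, the transacylase, is Dbt. The kinase Bckdk phosphorylates Bckdha and so turns the complex off, and the phosphatase Ppm1k reverses this. Downstream, Ivd oxidises isovaleryl-CoA in the leucine branch, Mccc1 is the biotin-carrying subunit of the next leucine enzyme, and Hibadh oxidises 3-hydroxyisobutyrate in the valine branch. Blood levels of branched-chain amino acids are known to be raised in insulin-resistant states, which is why the pathway is of interest beside glucose tolerance.

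Sequence before the annotated start was taken from RefSeq (GRCr8, the assembly of a BN rat), where 7 of the 8 genes were matched. The 4 windows printed are those of Ivd, whose level differed most widely among strains, and of Dbt, Hibadh and Bckdk, whose levels were correlated among HS rats, Bckdk inversely with the other 2. Those correlations were not called once the leading axis of variation among the arrays was a covariate. Each holds the 250 bases before the start, read 5′ to 3′ on the strand of the gene. Capitals mark the GC box GGGCGG and the CCAAT box CCAAT on either strand. Ivd lies on the plus strand at chr3:126305334-126305583, Dbt on the plus strand at chr2:207166410-207166659, Bckdk on the plus strand at chr1:191945559-191945808, and Hibadh on the minus strand at chr4:83077820-83078069.
Ivd: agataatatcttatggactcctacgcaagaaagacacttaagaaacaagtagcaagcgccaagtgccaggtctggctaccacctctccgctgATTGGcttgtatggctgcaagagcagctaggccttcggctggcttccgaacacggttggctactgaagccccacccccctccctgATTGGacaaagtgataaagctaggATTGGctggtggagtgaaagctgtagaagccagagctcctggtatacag
Dbt: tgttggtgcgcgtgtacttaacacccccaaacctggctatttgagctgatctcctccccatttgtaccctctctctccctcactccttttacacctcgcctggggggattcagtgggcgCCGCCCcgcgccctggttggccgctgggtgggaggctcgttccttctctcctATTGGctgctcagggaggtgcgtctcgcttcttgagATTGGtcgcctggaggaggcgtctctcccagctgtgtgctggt
Bckdk: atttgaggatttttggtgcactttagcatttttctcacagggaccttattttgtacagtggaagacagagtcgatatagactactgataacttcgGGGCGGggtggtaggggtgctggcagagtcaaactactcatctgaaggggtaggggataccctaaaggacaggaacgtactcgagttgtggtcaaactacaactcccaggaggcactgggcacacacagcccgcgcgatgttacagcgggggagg
Hibadh: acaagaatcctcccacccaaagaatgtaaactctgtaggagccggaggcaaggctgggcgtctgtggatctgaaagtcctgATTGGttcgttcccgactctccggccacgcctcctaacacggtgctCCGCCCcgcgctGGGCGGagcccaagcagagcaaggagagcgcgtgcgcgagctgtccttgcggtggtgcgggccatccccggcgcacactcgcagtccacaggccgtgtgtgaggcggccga
The Ivd window held 3 CCAAT boxes and 0 GC boxes. The Dbt window held 2 CCAAT boxes and 1 GC box, the Hibadh window 1 CCAAT box and 2 GC boxes, and the Bckdk window 0 CCAAT boxes and 1 GC box. Over 33469 windows of the same length, 34% held a CCAAT box and 30.5% a GC box. The TATA box TATAAA (12.9% of windows) and the E box CACGTG (5.59% of windows) were not found in these 4 windows. The share of G and C was 52.0% for Ivd, 60.8% for Dbt, 51.2% for Bckdk and 64.8% for Hibadh, against a median of 51.2%. These matches describe letters only, and the sequences of strains other than BN were not used here.

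Levels are log2 expression values, so a difference of 1 is 2-fold. The deposited values ran from 1.86 to 15 with array medians between 5.33 and 5.39. No pair of arrays held identical values, and the 2 arrays of a strain correlated at 0.989 to 0.997 over all probe sets. The labels do not say whether these came from separate litters or days, so p-values measure the spread between arrays, which may be partly technical. Hepatocyte markers averaged 13.4 to 13.8 on every array, whereas muscle and fat markers averaged 3.14 to 3.69, below the array medians. Within bulk liver, fewer cells of a type and less RNA per cell cannot be told apart. One axis of variation, the first principal component of the HS arrays after removal of the group means, held 18% of their variance. Results that move with this axis are given with and without the 5 rats of highest score, 3 intolerant and 2 normal. That number was a choice and follows no break in the scores: the fifth rat scored 28.1, the next 27.7 and the one after it 19.3. A gene is called when limma's p, adjusted by the Benjamini-Hochberg method over all 31042 probe sets, is under 0.05.

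The first comparison set intolerant against normal HS livers for these genes. None of the 8 was called, and 1 of 8, Bckdhb, had an unadjusted p under 0.05, against 8.0% of all probe sets. The other 7 differed by at most 0.024 in either direction. Bckdhb ran from 9.81 through a median of 10.59 to 11.02 in normal rats. In intolerant rats it ran from 10.34 through a median of 10.81 to 11.33. The groups overlapped over most of their range, with 20 of 23 intolerant rats above the normal median. Intolerant rats had a mean of 10.84 ± 0.27 and normal rats one of 10.54 ± 0.32 (SD, n = 23 each), and the 95% interval of the difference of 0.30 ran from 0.13 to 0.47. By p, Bckdhb ranked 108 of 31042 probe sets (limma, adjusted p = 0.282), and over 12 other settings its adjusted p ran from 0.092 to 0.350. Earlier analysis of these arrays had already singled Bckdhb out, so this rank is no independent support. In the same arrays the intolerant mean was the higher one for 42.5% of all genes. Among markers of endothelium this held for 0 of 10, and among those of Kupffer cells and macrophages for 1 of 9. Stellate and matrix markers gave 2 of 10, and muscle and fat markers 1 of 6. Hepatocyte, bile duct and lymphocyte markers gave 4 of 9, 3 of 5 and 3 of 6. The endothelial list averaged 7.25 to 8.18 in intolerant and 7.51 to 8.20 in normal rats, and the Kupffer cell list 7.91 to 9.02 and 7.65 to 9.27. With both list means as covariates the Bckdhb difference was 0.29 (limma, adjusted p = 0.342).

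**Figure D1:**
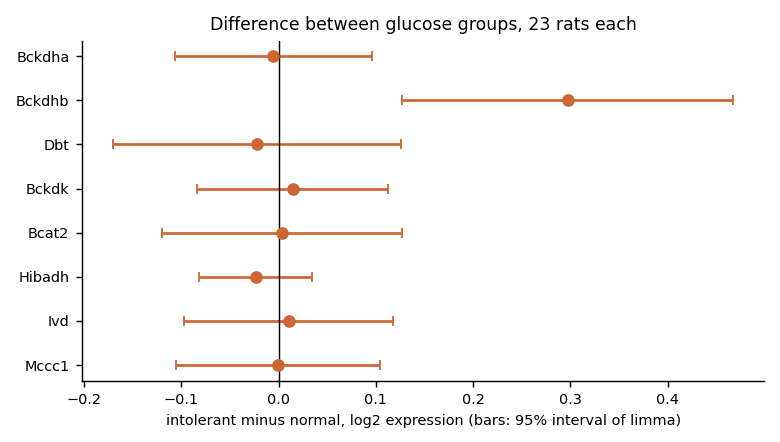
Difference in log2 expression between intolerant and normal HS rats (23 each) on the horizontal axis for each gene on the vertical axis, with points for the estimate and bars for the 95% interval of limma. Only the Bckdhb interval, 0.13 to 0.47, lies to one side of 0, without adjustment for the number of probe sets tested.

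The partner subunits of Bckdhb had means close to equal in the glucose groups. Bckdha had a mean of 9.40 ± 0.15 with intolerance and 9.40 ± 0.19 with normal tolerance (SD, n = 23 each), and the 95% interval of the difference ran from -0.11 to 0.096. Dbt averaged 9.51 ± 0.27 and 9.53 ± 0.25 (SD, n = 23 each), with an interval from -0.17 to 0.13. The kinase Bckdk had means of 7.96 ± 0.16 and 7.94 ± 0.17 (SD, n = 23 each), with an interval from -0.084 to 0.11. Over all 46 HS rats, whichever group, Bckdha ran from 8.83 to 9.73, Dbt from 8.77 to 10.19 and Bckdk from 7.67 to 8.29. The group medians of these 3 genes were close, at 9.38 and 9.39 for Bckdha, 9.52 and 9.51 for Dbt and 7.90 and 7.95 for Bckdk in intolerant and in normal rats.

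The enzymes outside the complex also overlapped between the glucose groups. Ivd ran from 10.28 through a median of 10.66 to 11.13 in intolerant rats and from 10.46 through 10.66 to 11.04 in normal rats. Mccc1 ran from 8.78 through 9.22 to 9.52 and from 8.96 through 9.19 to 9.61. Hibadh, the narrowest, ran from 12.40 through 12.68 to 12.78 and from 12.49 through 12.70 to 12.82. Bcat2, the first step, had means of 5.97 ± 0.23 and 5.97 ± 0.20 (SD, n = 23 each), little above the array medians. The 95% interval of the difference was -0.098 to 0.12 for Ivd, -0.11 to 0.10 for Mccc1 and -0.082 to 0.034 for Hibadh. For Bcat2 it was -0.12 to 0.13. Second probe sets of Bckdha and Dbt differed by -0.033 and 0.0066, also without being called. The median absolute difference was 0.012 over the 8 genes and 0.043 over all genes. With limma 0 of 31042 probe sets were called (0%) and 2483 had an unadjusted p under 0.05, and a plain linear model also called 0, with 2495.

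The second comparison asked whether levels differ among the 6 inbred strains. Ivd, Bckdhb and Dbt were called, Ivd over a 2.48-fold range of strain means, Bckdhb over 1.80-fold and Dbt over 1.90-fold. These are 3 of 8 genes (37.5%), against 13.8% of all genes and 11.9% of all probe sets. The genes were chosen with earlier results of these data known, so this share is no independent support. Lists of cell type markers gave from 0% for muscle and fat to 50% for endothelium. Leaving out ACI array 2 or M520 array 1 left 1 of the 8 genes called, and leaving out any other single array left 2 to 4. Ivd remained called whichever array was left out, and under every other setting tried.

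Ivd, the leucine-branch dehydrogenase, had 11.23 and 11.28 on the 2 F344 arrays and 11.003 and 11.45 on the BUF arrays. ACI gave 10.85 and 10.76, M520 10.36 and 10.57, BN 9.95 and 10.60, and WKY 9.81 and 10.08. The F344 and BUF arrays were thus the 4 highest, and no other strain overlapped them. Strain means differed with an adjusted p of 0.00662 (limma's F test), which ran from 0.00255 to 0.0226 when single arrays were left out. WKY lay below the mean of the other 5 strains by 0.86 ± 0.16 (SE, limma adjusted p = 0.0113), against 4.74% of probe sets called in WKY. That call was lost without WKY array 1 (-0.72, limma adjusted p = 0.195). F344 was higher than the other 5 by 0.71 ± 0.16 (SE), not called (limma adjusted p = 0.0573), against 1.61% of probe sets called in F344. The adjustment was made within each strain's comparison. BUF was higher by a smaller 0.68 ± 0.16 (SE, limma adjusted p = 0.0371) and was called, against 5.76% of probe sets called in BUF. This call was lost when BUF array 2 was left out (0.45, limma adjusted p = 0.559), when any of ACI array 1, ACI array 2, F344 array 1, M520 array 1 or M520 array 2 was left out (limma adjusted p from 0.0542 to 0.0699), and with the leading axis as a covariate (0.62, limma adjusted p = 0.413).

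Bckdhb, the beta subunit of E1, had 11.04 and 10.76 in F344, 11.03 and 10.74 in BUF, and 10.61 and 10.98 in BN. Lower values were read in WKY (10.27 and 10.49), ACI (10.33 and 10.16) and M520 (9.92 and 10.18). The 6 arrays of the upper 3 strains lay above all 6 of the lower 3. The adjusted p of the F test was 0.0205 (limma), and it was 0.0557 without ACI array 2, 0.0749 without M520 array 1 and 0.0583 when all 58 arrays shared the estimate of spread. M520 lay below the other 5 strains by 0.59 ± 0.14 (SE, limma adjusted p = 0.0332), against 4.65% of probe sets called in M520. The M520 call was lost without M520 array 1 (-0.46, limma adjusted p = 0.339), M520 array 2 (-0.72, limma adjusted p = 0.119), ACI array 1 (limma adjusted p = 0.0683) or ACI array 2 (limma adjusted p = 0.0558), and with the spread of all 58 arrays (limma adjusted p = 0.114).

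Dbt, the E2 core, ran in another order. M520 was highest at 9.87 and 9.90, followed by ACI (9.79 and 9.68), BN (9.26 and 9.76), F344 (9.45 and 9.29), BUF (9.43 and 8.92) and WKY (8.91 and 9.004). Both M520 arrays lay above the other 10, and WKY overlapped only with BUF. The adjusted p of the F test was 0.0396 (limma), close to the threshold. It was 0.056 with the replicate number as a block, and above the threshold when either array of ACI, F344, WKY or M520 was left out (8 of 12 cases, limma adjusted p from 0.0502 to 0.113). WKY lay below the mean of the other 5 strains by 0.58 ± 0.15 (SE, limma adjusted p = 0.0486), a call lost in 9 of 12 cases: without either array of ACI, F344, WKY or M520, or without BN array 2 (adjusted p up to 0.348). Centring each array on its median gave an adjusted p of 0.0528, the block 0.063 and the spread of all 58 arrays 0.0781. The second Dbt probe set, dim at a mean of 4.07 over all arrays, was not called (0.53 between the extreme strain means, adjusted p = 0.314) and put WKY below the others by only 0.059.

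Bckdk, the kinase that restrains the complex, was not called by the F test (limma, adjusted p = 0.0858). It had 8.39 and 8.21 in F344, 8.19 and 8.08 in WKY, 7.85 and 8.39 in BUF, and 8.03 and 8.07 in ACI. BN gave 7.75 and 7.90, and M520 gave 7.66 and 7.51. Both M520 arrays lay below the other 10, yet M520 against the other 5 strains stayed above the threshold (-0.50 ± 0.13, SE, limma adjusted p = 0.0522). Bckdk was called without BUF array 1 (limma adjusted p = 0.0139), without BUF array 2 (limma adjusted p = 0.0323) and when all 58 arrays shared the spread (limma adjusted p = 0.0157). It was not called when any other single array was left out (limma adjusted p up to 0.27) or under the remaining settings (limma adjusted p up to 0.119). The M520 strain thus had the lowest means of Bckdk and Bckdhb and the highest of Dbt.

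The remaining 4 genes were not called among strains. Bckdha ran from means of 9.71 in BUF to 9.27 in BN, with BUF arrays at 9.498 and 9.91 and BN arrays at 9.01 and 9.53 (limma, adjusted p = 0.436). Its second probe set was not called either (limma, adjusted p = 0.155) and also had its highest array in BUF, at 6.04 and 7.17. Mccc1 ran from 9.30 in ACI to 8.94 in BUF (limma, adjusted p = 0.179). Hibadh ran from 12.70 in ACI to 12.42 in WKY (limma, adjusted p = 0.615), and Bcat2 from 6.24 in BUF to 5.91 in WKY (limma, adjusted p = 0.495). WKY had the lowest mean for 4 of the 8 genes (Dbt, Bcat2, Hibadh and Ivd) and the highest for 0. F344 had the highest mean for 3 (Bckdhb, Bckdk and Ivd) and the lowest for 0. Some of these means lay close to the next strain. For WKY these were Hibadh (12.42 against 12.45 in BUF) and Bcat2 (5.91 against 5.96 in M520). For F344 it was Bckdhb (10.90 against 10.88 in BUF). The matching shares over all genes are not given here. In the same arrays some marker lists were higher in WKY and BN. Kupffer cell markers averaged 9.09 to 9.38 in WKY, 8.93 to 9.79 in BN and 8.29 to 9.07 in the other strains. Endothelial markers averaged 8.13 to 8.28 in WKY, 8.37 to 8.51 in BN and 7.62 to 8.01 in the others. The mean of the hepatocyte list was higher there too, at 13.68 to 13.79 in WKY, 13.81 to 13.82 in BN and 13.49 to 13.66 in the others. Its genes were unlike: Tat spanned 1.52 between strain means (highest in BN) and Apoa1 1.01 (highest in WKY). Alb, Ttr and Serpina1 spanned only 0.0198, 0.0755 and 0.0889, and Cyp2e1 was highest in BN but lowest in WKY. Lymphocyte markers were not higher in WKY and BN, at 4.38 to 4.54 in WKY, 4.38 to 4.45 in BN and 4.31 to 4.71 in the others. The part of cell types in the strain differences was not tested.

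**Figure D2:**
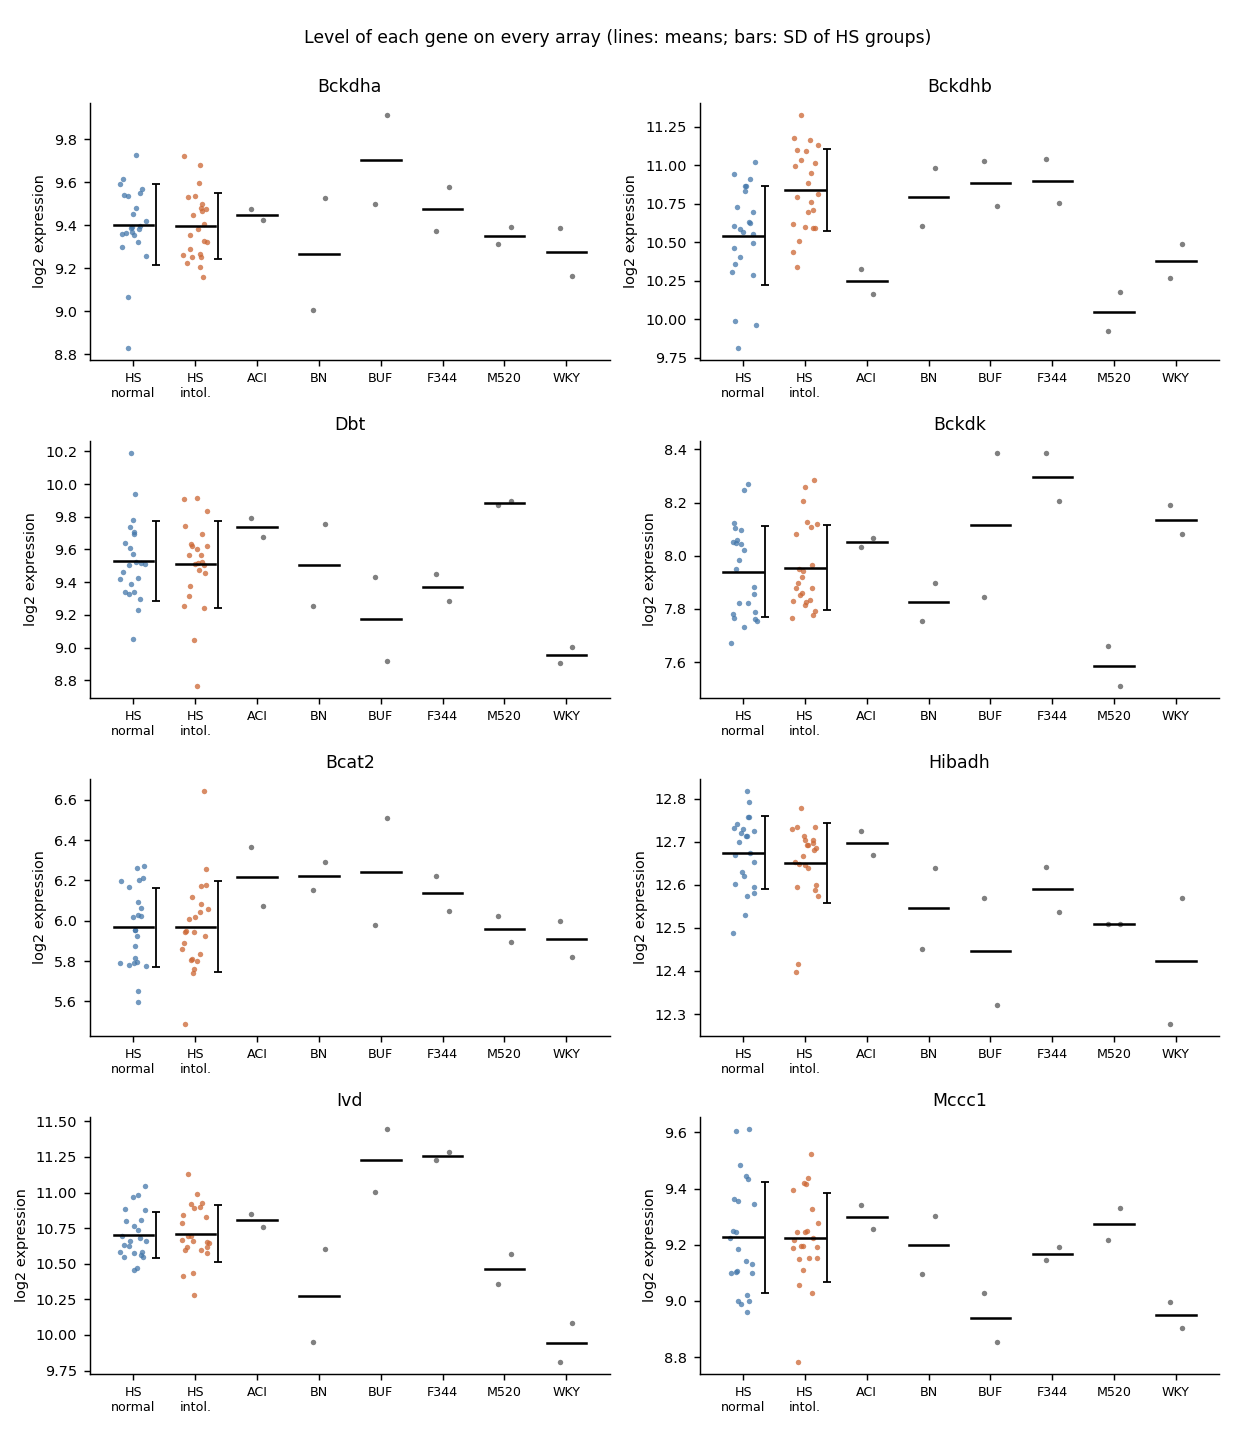
Log2 expression of each gene (vertical axes) on every array, by group on the horizontal axis: 23 normal and 23 intolerant HS rats and 2 arrays of each strain, with lines for means and bars for the SD of the HS groups. The glucose groups overlap in every panel, and Ivd spans strain means from 9.95 in WKY to 11.26 in F344.

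Between single strains, 11 of 120 differences were called (9.17%) when p was adjusted over all probe sets and all 15 pairs of strains, against 3.65% over all probe sets and between 1.71% and 4.88% in single pairs of strains. Ivd accounted for 5 of them, Bckdhb for 3, Dbt for 2 and Bckdk for 1. Ivd was 2.48-fold higher in F344 than in WKY (limma, adjusted p = 0.0055) and 2.43-fold higher in BUF than in WKY (limma, adjusted p = 0.00637). It was also higher in ACI than in WKY and in F344 and BUF than in BN. Bckdhb was higher in F344, BUF and BN than in M520, by 1.80-fold, 1.78-fold and 1.68-fold (limma, adjusted p = 0.0226, 0.0245 and 0.0408). Dbt was higher in M520 than in WKY by 1.90-fold and in ACI than in WKY by 1.71-fold (limma, adjusted p = 0.0212 and 0.0474). Bckdk was 1.64-fold higher in F344 than in M520 (limma, adjusted p = 0.0401). Of the 40 pairs of strains that neighbour each other in the order of a gene, 0 were called with limma. Neighbours are the closest strains by construction, so few calls can be looked for among them. The matching share over all probe sets is not given here. Some steps between neighbours were larger than the pooled SD between arrays of a strain, though not called. Examples, picked for their size, were BN against WKY for Bckdhb (0.42 ± 0.18, SE, limma adjusted p = 0.25) and BUF against ACI for Ivd (0.42 ± 0.21, SE, limma adjusted p = 0.344). In both examples the arrays did not overlap. The 11 calls became 3 without M520 array 1, 4 without M520 array 2, 5 without ACI array 1 or ACI array 2, 6 without F344 array 1 and 7 without F344 array 2 or WKY array 1. Of 48 comparisons of a strain with the other 5, 4 were called (8.33%), against 3.98% over all probe sets and between 1.61% in F344 and 5.76% in BUF. That number was 1 without ACI array 1, ACI array 2, M520 array 1 or M520 array 2, 2 without F344 array 1 or WKY array 1, and 7 without BUF array 1.

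Strain levels were then set against the outbred rats. Of 48 strain means, 6 lay outside the range of the 46 HS rats (12.5%), against 4.46% over all probe sets and between 1.97% in ACI and 7.37% in BUF. Ivd accounted for 4 and Bckdk for 2. For Ivd the HS rats ran from 10.28 to 11.13, with F344 (11.26) and BUF (11.22) above that range and BN (10.28) and WKY (9.95) below it, BN by less than 0.01. For Bckdk the HS rats ran from 7.67 to 8.29, with F344 (8.30) just above and M520 (7.59) below. All strain means of Bckdha, Bckdhb, Dbt, Bcat2, Hibadh and Mccc1 lay inside the HS range. The SD within a glucose group was 0.30 for Bckdhb and 0.18 for Ivd, while the SD between the 2 arrays of a strain, pooled, was 0.19 and 0.25. For Ivd the pooled value came largely from BN (SD 0.461) and BUF (SD 0.315). WKY had 0.194, near the HS value, and M520, ACI and F344 had less, at 0.152, 0.0697 and 0.0368. Strain means of 2 arrays carry such scatter. Strain means of Ivd (9.95 to 11.26) spanned more than the HS rats (10.28 to 11.13). The HS range of Bckdhb (9.81 to 11.33) took in every strain mean. No label gives a scan time or processing order, so a batch between HS and inbred arrays cannot be told apart from the difference in stock.

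**Figure D3:**
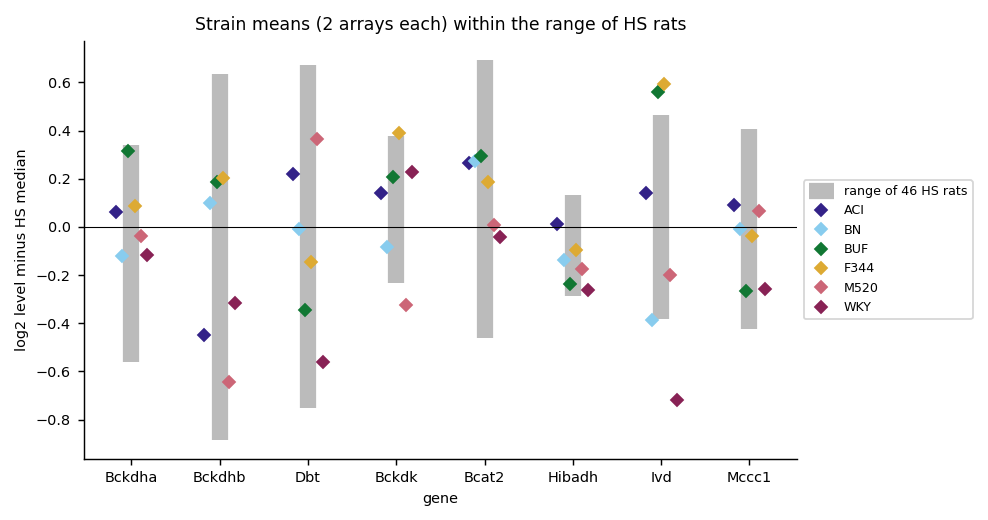
Strain means (diamonds, 2 arrays each) and the range of the 46 HS rats (grey bars) as log2 level minus the HS median, for each gene on the horizontal axis. Ivd has 4 strain means and Bckdk 2 beyond the grey bar.

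The HS rats were also used to see how the genes vary together. Of 28 pairs of genes, 7 were called, meaning that each gene of the pair was called in the limma fit that used the other as covariate beside the glucose group. Bckdha rose with Bckdk and fell as Dbt and Hibadh rose, and Dbt rose with Hibadh and Mccc1 and fell as Bckdk rose. Such calls are common for some of these genes. The share of all probe sets called as covarying was 19.2% for Bckdk, 18.9% for Hibadh, 16% for Dbt, 3.15% for Bckdha, 1.01% for Mccc1 and 0.193% for Bcat2. For Bckdhb and Ivd it was 0% with limma, with 1720 and 3824 of 31041 probe sets at an unadjusted p under 0.05.

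Bckdk and Hibadh had the strongest relation, with r = -0.63 and rho = -0.60 over 46 rats, each with a permutation p of 1e-05, the smallest that the resampling can give (limma, adjusted p = 0.000811 and 0.000174 in the fits with Bckdk and with Hibadh as covariate). Within groups r was -0.70 in normal and -0.57 in intolerant rats. Bckdk and Dbt had r = -0.59 (permutation p = 1e-05) and rho = -0.58 (permutation p = 2e-05), with -0.49 in normal and -0.69 in intolerant rats (limma, adjusted p = 0.000418 and 0.000922). Bckdha and Hibadh had r = -0.59 (permutation p = 5e-05) and rho = -0.57 (permutation p = 4e-05), and limma adjusted p = 0.0175 and 0.000393. The kinase and its substrate, Bckdk and Bckdha, had r = 0.50 (permutation p = 0.00036) and rho = 0.41 (permutation p = 0.00563), with 0.48 in normal and 0.53 in intolerant rats (limma, adjusted p = 0.00516 and 0.0326). Dbt and Hibadh had r = 0.59 (permutation p = 4e-05) and rho = 0.41 (permutation p = 0.00473). Bckdha and Dbt, 2 parts of the same complex, had r = -0.48 (permutation p = 0.00081) and rho = -0.34 (permutation p = 0.0222). Without the 2 rats farthest from the median of the gene named first in the pair, r was -0.58 for Bckdk and Hibadh, -0.59 for Dbt and Bckdk, -0.56 for Bckdha and Hibadh, 0.44 for Bckdha and Bckdk, 0.41 for Dbt and Hibadh and -0.34 for Bckdha and Dbt.

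**Figure D4:**
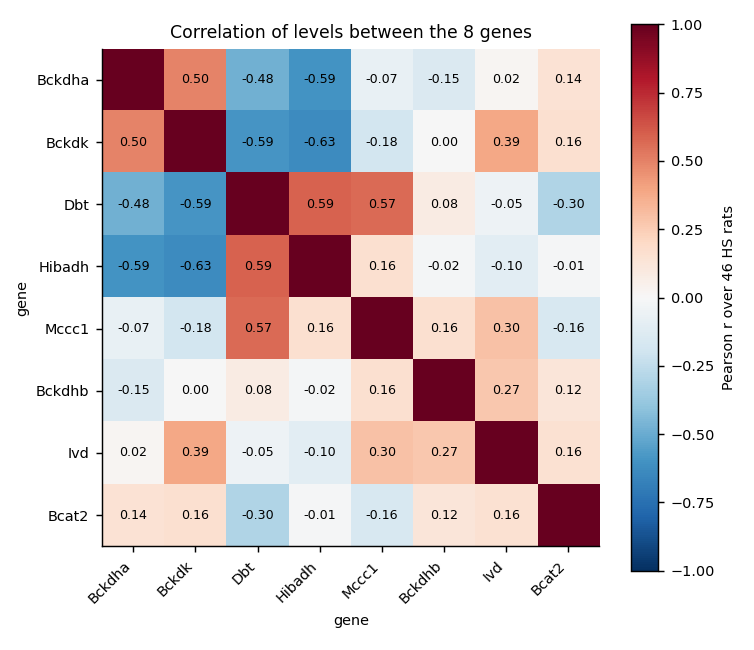
Pearson correlation of log2 levels between each pair of the 8 genes over 46 HS rats, both axes listing the genes and colour giving r. Bckdha and Bckdk oppose Dbt and Hibadh, and the row of Bckdhb lies between -0.15 and 0.27.

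These 6 relations moved with the leading axis of variation. Its score correlated with Bckdk at 0.67, with Bckdha at 0.43, with Dbt at -0.61 and with Hibadh at -0.67 over the 46 rats, a description in which the genes are part of the data that define the axis. The 5 rats of highest score had Bckdk between 8.12 and 8.29 and Hibadh between 12.40 and 12.60, while the rat next in score had a Bckdk of 7.92. Without them, r over 41 rats was -0.47 for Bckdk and Hibadh, -0.45 for Dbt and Bckdk, -0.50 for Bckdha and Hibadh, 0.32 for Bckdha and Bckdk, 0.28 for Dbt and Hibadh and -0.34 for Bckdha and Dbt, and none of the 6 was called. With the score as a covariate none of the 6 was called either. With the score and the group means removed, r was -0.47 for Bckdha and Hibadh (from -0.60 with the group means alone removed), -0.33 for Bckdk and Hibadh (from -0.63) and between -0.31 and 0.32 for the other 4 pairs. With second probe sets of Bckdha and Dbt, which correlated with the first at 0.38 and 0.10, the pairs of Bckdha with Bckdk and with Hibadh and that of Bckdk with Hibadh were called. The 2 arrays of a strain also differed along this axis, most in BUF and F344. The BUF arrays scored 20.4 and 53.8, and from the first to the second Bckdha went from 9.498 to 9.91, Bckdk from 7.85 to 8.39, Dbt from 9.43 to 8.92 and Hibadh from 12.57 to 12.32. The F344 arrays scored 2.03 and 32.3, and there Bckdha went from 9.37 to 9.58, Dbt from 9.45 to 9.29 and Hibadh from 12.64 to 12.54, but Bckdk from 8.39 to 8.21, against the direction in BUF. Endothelial and Kupffer cell marker means correlated with the score at -0.22 and -0.03, and with both as covariates the same 7 pairs were called.

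**Figure D5:**
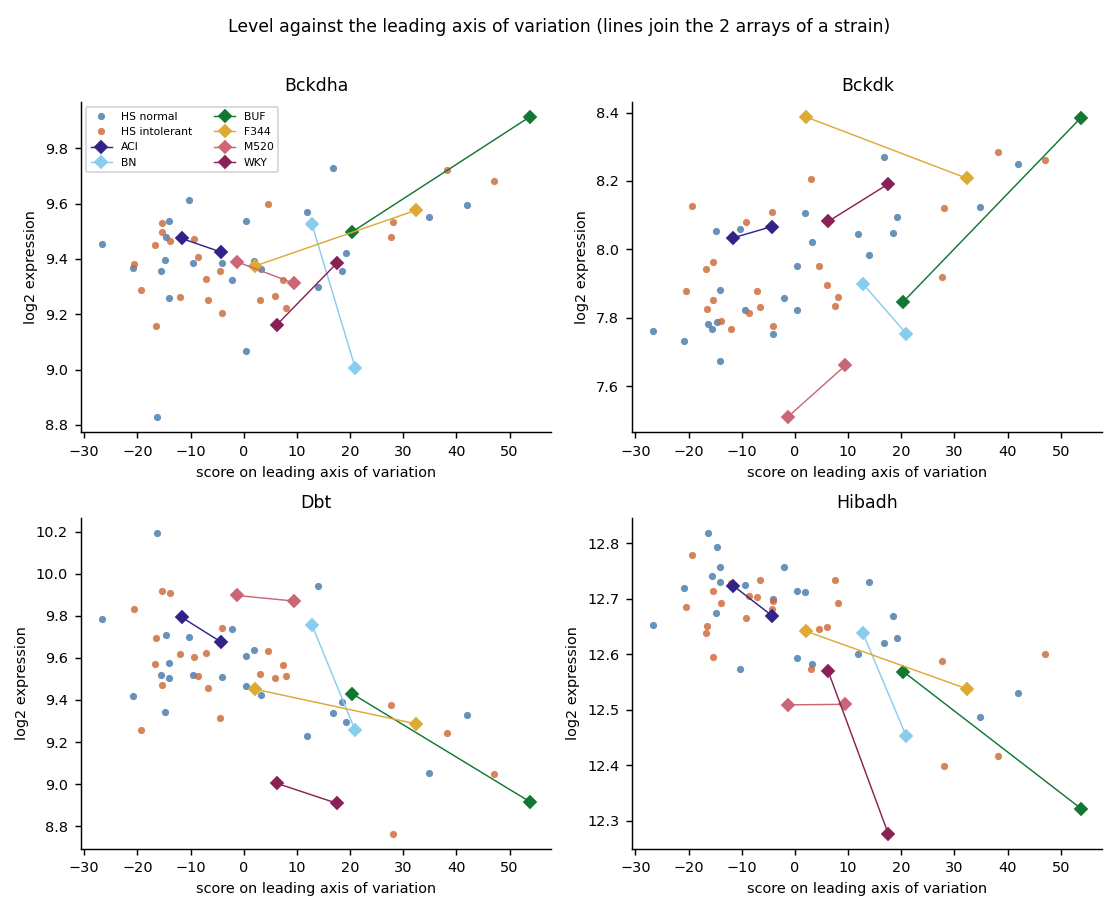
Log2 expression of Bckdha, Bckdk, Dbt and Hibadh (vertical axes) against the score on the leading axis of variation (horizontal axes, arbitrary units) for 46 HS rats (circles) and 12 inbred rats (diamonds, lines joining the 2 arrays of a strain). The second BUF array, at a score of 53.8, has the highest Bckdha, at 9.91, and a Dbt of 8.92.

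The seventh pair behaved otherwise. Dbt, the E2 core, and Mccc1, the carboxylase subunit of the leucine branch, had r = 0.57 (permutation p = 7e-05) and rho = 0.56 (permutation p = 3e-05), with 0.62 in normal and 0.52 in intolerant rats (limma, adjusted p = 0.0014 and 0.0155). It was 0.50 without the 2 rats farthest from the Dbt median and 0.59 over the 41 rats without the 5 of highest score. The pair was still called without those rats, and also with the score as a covariate. With the second Dbt probe set it was not called. Bckdk and Ivd had r = 0.39 (permutation p = 0.0071) and rho = 0.31 (permutation p = 0.0333) but passed in 1 of the 2 fits only (limma, adjusted p = 0.0426 and 0.256). Bckdhb took part in 0 called pairs with limma. Its r with Bckdha, the other subunit of E1, was -0.15 (permutation p = 0.331) with rho = -0.24 (permutation p = 0.115), and its highest r, with Ivd, was 0.27 (permutation p = 0.0675) with rho = 0.25 (permutation p = 0.0956).

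The genes of most like pattern over the 46 HS rats, by Pearson r after the group means were removed and among 14216 genes, were Pcyt2 (0.86) and Cars1 (0.78) for Bckdk. They were Plpbp (0.81) and Nucks1 (0.78) for Dbt, Dcun1d5 (0.78) and Hnrnpll (0.76) for Hibadh, and Aamp (0.78) and Fkbp2 (0.73) for Bckdha. Mccc1 was followed by Bola3 (0.75) and Dglucy (0.72), Bcat2 by Trim25 (0.63) and Zfp518a (0.62), and Ivd by Txn2 (0.60) and C3h9orf78 (0.60). For Bckdhb the closest were Aspa (0.58) and Ndufv3 (0.55), the lowest values among the 8. None of these was itself one of the 8 genes. Each r was picked as among the highest of 14216, with the leading axis of variation not removed. With limma 0 probe sets were called as covarying with Bckdhb or with Ivd, so their closest genes were not called.

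Other genes tied to the pathway were read from a list of 18 measured genes of the remaining steps and a list of 8 genes of control and transport. The second list also holds the transcription factors Klf15, Ppara and Mlxipl, which are not enzymes of the pathway. Between the glucose groups 0 of 18 and 0 of 8 were called by limma, with 2 and 0 at an unadjusted p under 0.05. The intolerant mean was higher for 12 of the 18 steps, 2 of the 8 control and transport genes and 42.5% of all genes. The median difference was 0.024 for the steps, -0.052 for control and transport and -0.012 over all genes. The 2 of smallest p over both lists were Mcee, the epimerase of the propionate route, which averaged 9.55 in intolerant and 9.38 in normal rats (0.17 ± 0.07, SE, limma adjusted p = 0.564), and Acadsb, the dehydrogenase of the isoleucine branch, which averaged 5.14 and 4.72 (0.42 ± 0.21, SE, limma adjusted p = 0.621). The phosphatase Ppm1k differed by -0.09 ± 0.09 (SE, limma adjusted p = 0.826).

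Among strains, 3 of 18 steps (16.7%) and 4 of 8 genes of control and transport (50%) were called, against 13.8% of all genes. Both lists were chosen with earlier results of these data known, so these shares are no independent support. Dld, the E3 subunit shared with other keto acid dehydrogenases, had its highest mean in ACI (10.04 and 9.83) and its lowest in BUF, whose arrays read 8.97 and 7.89 (limma, adjusted p = 0.0323). Echs1, an enoyl-CoA hydratase, had 11.84 and 11.90 in BUF and 11.82 and 11.83 in F344, against 10.94 and 11.31 in M520 and 10.96 and 11.32 in WKY (limma, adjusted p = 0.0233). As with Ivd, the BUF and F344 arrays were the 4 highest for Echs1. Acad8, the dehydrogenase of the valine branch, was highest in ACI at 8.05 and 7.92, with no overlap, and had its lowest mean in WKY at 7.30 and 7.42 (limma, adjusted p = 0.0331).

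Klf15, a transcription factor known to promote amino acid breakdown in fasting, was highest in BN (10.94 and 10.71) and lowest in WKY (9.15 and 9.14), and no array of another strain reached either (limma, adjusted p = 0.00705). Ppara, the nuclear receptor of fasting fat oxidation, had its highest mean in WKY (5.35 and 5.94) and its lowest in BUF (4.22 and 4.58), with limma adjusted p = 0.0102, at levels near the array medians. Mlxipl, the carbohydrate-response factor, had 8.43 and 8.69 in ACI and 7.89 and 7.58 in BN (limma, adjusted p = 0.0283). Slc43a1, a transporter of large neutral amino acids, ran from a mean of 8.85 in BUF to 7.46 in WKY (limma, adjusted p = 0.0437). The 7 calls of both lists became 2 without ACI array 1 or ACI array 2, 4 without BN array 1, BN array 2, M520 array 1 or M520 array 2, and 11 without BUF array 1.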

How the data were processed

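Liver RNA of 58 rats was amplified, labelled with biotin and hybridised to Affymetrix rat arrays, 1 array per rat, per the labels' protocols. The authors deposited log2 expression values for 31042 probe sets on a common scale. That scale was read from the values. Per the submitters' processing notes the software was Partek, but its settings and its methods of summary and normalisation were not stated in the labels. Arrays have no read depth, and their number limits the precision.

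Gene names come from annotation of the platform, with symbols updated through gene identifiers to GRCr8 (14167 of 14217 genes found). Of the probe sets, 20826 had 1 symbol, 436 several and 9780 none. Models were fitted to the deposited values, unfiltered, by lmFit and eBayes of limma 3.58.1 in R 4.3.3, with Benjamini-Hochberg adjustment over all probe sets. HS fits had 44 and strain fits 6 residual degrees of freedom before moderation. Permutation tests were two-sided with 100000 resamples. The scripts were tested on simulated data. The 8 genes were named with all their values. Of the pathway lists, called genes and the 2 of smallest p were named, and the 2 genes of highest r per gene. The members and lists were chosen with earlier results of these data known.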

Additional observations from a re-analysis of the deposited data

How the results depend on the processing

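In the glucose comparison 0 of the 8 genes were called under each of 12 other settings, and 0 genes of the pathway lists with quantile normalisation or median centring. Bckdhb (0.29 to 0.31) and Hibadh kept their sign throughout. The other 6 differences were so close to 0 that settings turned their sign: with quantile normalisation Bckdk was -2.0e-05 and Ivd -0.0013, with arrays centred on their median Bckdha was 0.0036 and Mccc1 0.0085, and with array weights Dbt was 0.012, Bcat2 -0.014 and Mccc1 0.0050. The second Dbt probe set gave 0.0066, and Ivd was -0.010 with marker means as covariates. Without the 5 rats of highest axis score, a setting chosen after seeing the data as was the axis covariate, Dbt was 0.019, Bckdk -0.0022 and Ivd -0.018. Among strains, settings other than leaving out an array gave 2 to 3 called genes, 3 to 5 called differences from the other strains and 9 to 12 called pairs of strains. Leaving out single arrays gave 1 to 4, 1 to 7 and 3 to 16, and 2 to 11 for the pathway lists. The 7 covarying pairs became 3 with second probe sets, 1 with the axis as a covariate and 1 without the 5 rats. The causes of these changes were not tested. Replicate numbers 1 and 2 are shared by the strains. The deviations of same-numbered arrays correlated at -0.146 to 0.421 (median -0.058) over 15 pairs of strains, above 0.1 in 3 of them. With the replicate number as a block 2 genes, 4 differences from the other strains, 10 pairs of strains and 6 genes of the pathway lists were called.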
